A study of Homo sapiens with 7 samples.

Results

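The genes described here encode surface and membrane-skeleton proteins of red cell precursors, megakaryocytes and their progenitors. They are KIT, PTPRC, ITGA2B, ITGB3, ANK1, EPB41, SLC4A1 and TFRC. They were found as the non-control probes that carry one of these 8 gene names in the deposited tables, together with the 250-kb windows that hold those probes. All 8 genes had a probe, out of 19036 named genes on the larger array design. They were covered by 71 of its 169519 probes, and by 33 probes of the array labelled 44k. Their probes lay in 8 of the 8913 windows of 250 kb that held at least 3 probes on every array. ITGA2B and SLC4A1 share a window, and EPB41 extends over 2 windows, 1 with 18 of its probes and 1 with 3.

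The arrays measured when DNA replicates within S phase. Growing cells were given bromodeoxyuridine (BrdU, a thymidine analogue that marks new DNA) at 50 µM for 2 h and sorted by DNA content (80000 cells) into fractions of early and late S phase. New DNA of the early fraction was labelled with Cy3 and that of the late fraction with Cy5, without a dye swap. K562, a blast-crisis leukaemia line that grows in suspension and has erythroid and megakaryocytic features, was measured on 3 arrays. These were 1 after a new and 1 after an old cell sorting method, both on the larger design, and 1 labelled 44k, whose sorting method the labels do not give. U2OS, an adherent osteosarcoma line, was measured on 4 arrays of the larger design, 2 labelled manual and 2 labelled automated. Both lines received the same BrdU pulse, and each is a long-cultured tumour line. Neither stands for primary erythroid cells or bone. The labels do not say that the arrays came from separate cultures, so the p-values below measure only the spread between these arrays, which may be technical.

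DNA that is transcribed or held in open chromatin tends to replicate early in S phase, and gene-poor, closed chromatin tends to replicate late. Timing is organised in domains far larger than a gene, so a gene shares its value with its neighbours. The position of some domains differs between cell types, and blood cell genes are among the loci at which such differences have been studied. The surface proteins considered here mark steps of blood development. KIT and PTPRC (CD45) belong to progenitors and white cells, ITGA2B and ITGB3 to megakaryocytes and platelets, and TFRC, SLC4A1, ANK1 and EPB41 to red cell precursors and red cells.

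The probes themselves show what each value rests on. For the 3 genes whose windows differed between the lines, the probe nearest the middle of the gene's probes is given. For ITGA2B and SLC4A1, the only probe of each gene is given. Coordinates are on genome build hg19 as deposited, sequences are as the deposited tables give them, and capitals mark CpG dinucleotides.
KIT probe, chr4:55573309-55573368: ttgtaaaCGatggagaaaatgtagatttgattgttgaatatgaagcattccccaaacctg
PTPRC probe, chr1:198667282-198667341: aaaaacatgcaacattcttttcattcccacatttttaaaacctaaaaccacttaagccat
TFRC probe, chr3:195789463-195789522: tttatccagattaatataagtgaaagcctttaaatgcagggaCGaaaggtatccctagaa
SLC4A1 probe, chr17:42334209-42334268: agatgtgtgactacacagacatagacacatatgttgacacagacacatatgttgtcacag
ITGA2B probe, chr17:42455126-42455175: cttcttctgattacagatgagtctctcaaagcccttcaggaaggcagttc
The KIT and TFRC probes each hold 1 CpG and the other 3 hold none. The G and C content is 35% in the KIT and TFRC probes, 30% in the PTPRC probe, 40% in the SLC4A1 probe and 46% in the ITGA2B probe.

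Arrays differed in brightness and in the share of spots that could be read in both channels. By the scanner software's own test, 8.80% of probes were well above background in both channels on the array labelled 44k, and 33.9% to 90.6% on the other 6 arrays. Where a spot did not exceed background, the software put a surrogate in place of its signal, so a ratio with a surrogate in the late channel is only a lower bound. This held for 49.7% of late spots on the array labelled 44k and for 0.184% to 14.6% on the others. A surrogate in the early channel makes the ratio an upper bound instead. Early spots had one in 12.8% of cases on the old-sorting K562 array and in 0.682% to 4.27% on the others. The manual U2OS arrays shared a slide, each other array had its own, and no slide held both lines, so cell line and slide cannot be told apart.

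Values are log2 of early over late signal, centred on the median probe of each array, so that positive values are early and negative values late relative to that probe. Of the 8 member windows, 3 differed between the lines by limma (adjusted p under 0.05 over all windows), namely KIT, PTPRC and TFRC. KIT was earlier in K562, and PTPRC and TFRC were later in K562. Across the genome 31.6% of windows passed the same test, 14.3% earlier and 17.3% later in K562, so the members' 3 of 8 (37.5%) lies near the background. All 3 differed by at least 1 in absolute value as well, as did 24% of all windows. PTPRC was the 1 member window whose line means had opposite signs, which held for 18.4% of all windows. The arrays of the lines did not overlap in 4 of the 8 windows, the 3 named and ANK1, against 39% of all windows. The median difference, K562 minus U2OS, was -0.38 over the members and -0.14 over all windows. The line mean was early for 6 of 8 member windows in K562 and 7 of 8 in U2OS, where 52.1% and 51.5% of all windows were early.

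**Figure D1:**
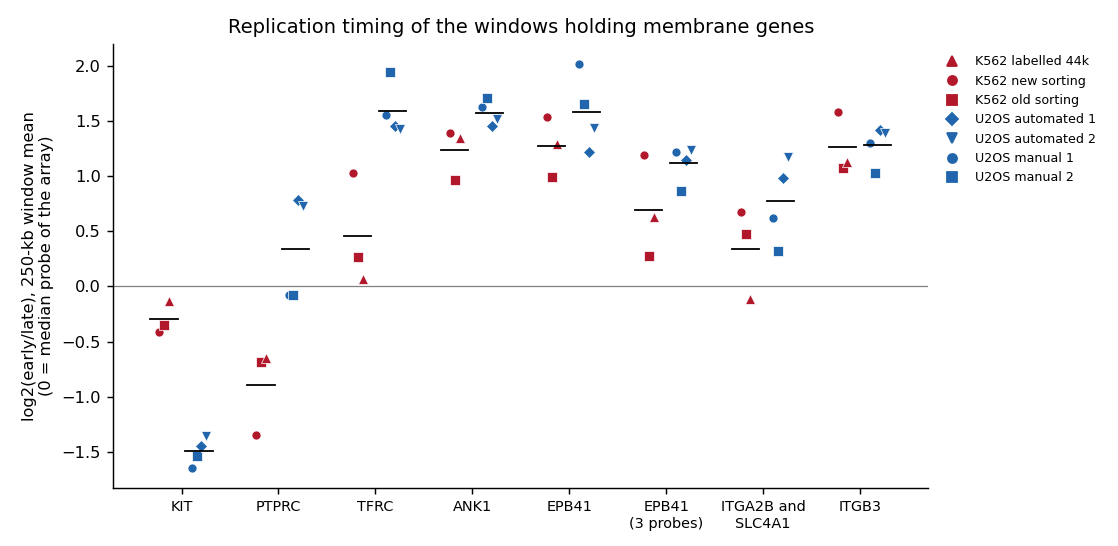
Each point is the log2(early/late) mean of a 250-kb window on 1 array (K562 red, U2OS blue), the black lines are cell line means, and 0 is the median probe of each array. K562 arrays lie above the U2OS arrays at KIT and below them at PTPRC, TFRC and ANK1, and the lines overlap at the other 4 windows.

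KIT, the receptor tyrosine kinase for stem cell factor on progenitors and mast cells, replicated late in U2OS and close to the median in K562. Its window (chr4:55500001-55750000) read -0.41 (new sorting), -0.35 (old sorting) and -0.13 (labelled 44k) on K562. It read -1.64 (manual 1), -1.54 (manual 2), -1.44 (automated 1) and -1.35 (automated 2) on U2OS. All 3 K562 arrays were above all 4 U2OS arrays, and the arrays within each line lay close together. K562 averaged -0.30 ± 0.15 (SD, n = 3) and U2OS -1.50 ± 0.12 (SD, n = 4), so K562 was higher by 1.20 (SE 0.20, limma adjusted p = 0.00141). As a rank among all windows of an array, where 100 is the earliest, KIT stood at 41.7 to 46.4 in K562 and at 15.1 to 27.8 in U2OS. None of the KIT window's spots carried a surrogate on any array.

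The 7 KIT probes span 74.5 kb. On the larger design, 6 of the 7 read higher on both K562 arrays than on all 4 U2OS arrays. The share of all probes that separate the lines in this way was not computed. This count and the probe counts for the other genes therefore only describe those probes. The probe printed above read -0.79 (new sorting) and -0.59 (old sorting) on K562 and between -2.12 and -1.13 on the U2OS arrays. The exception was A_14_P130973, which read -0.75 after new and 1.48 after old sorting of K562, and -1.66 to 0.39 on U2OS. The mean over KIT probes alone differed by 1.08 (SE 0.27, limma adjusted p = 0.0245 over 14181 genes), and this call was lost when any 1 of the 7 arrays was left out, with differences of 1.02 to 1.16 and adjusted p of 0.0509 to 0.0657.

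KIT sits at a timing boundary that runs in opposite directions in the lines. The window of PDGFRA, a growth factor receptor gene beside KIT (chr4:55000001-55250000), was late in K562 at -1.03 ± 0.19 (SD, n = 3), whereas U2OS was early at 1.41 ± 0.27 (SD, n = 4). The window of KDR, the vascular endothelial growth factor receptor gene on the other side (chr4:55750001-56000000), was early in K562 at 0.73 ± 0.19 (SD, n = 3), whereas U2OS was late at -1.59 ± 0.16 (SD, n = 4). From PDGFRA to KDR timing therefore became earlier in K562 and later in U2OS. The KDR value minus the PDGFRA value was 1.67, 1.53 and 2.05 on the new-sorting, old-sorting and 44k-labelled K562 arrays. It was -3.41 (manual 1), -3.04 (manual 2), -2.87 (automated 1) and -2.68 (automated 2) on U2OS. This step was chosen after its values were seen and was not tested. KIT itself lay between its neighbours in K562, 0.73 above PDGFRA and 1.02 below KDR, whereas in U2OS KDR differed from it by -0.09. The window between PDGFRA and KIT held too few probes on the array labelled 44k and has no value.

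The difference at KIT extended over 8 adjoining windows, or 2000 kb (chr4:55500001-57500000), all called earlier in K562. Within it the differences ran from 1.17 to 2.31 and the largest was at KDR. CLOCK, which encodes a circadian transcription factor, and the purine synthesis genes PPAT and PAICS lie in the same stretch. Of 1306 such runs in the genome, the median was 500 kb, the 90th percentile 1000 kb and the longest 2750 kb.

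PTPRC, the receptor tyrosine phosphatase found on white blood cells and their progenitors, was later in K562, and the 4 U2OS arrays did not read alike. Its window (chr1:198500001-198750000) read -1.35 (new sorting), -0.69 (old sorting) and -0.65 (labelled 44k) on K562. It read -0.08 on both manual and 0.78 and 0.73 on the automated U2OS arrays. Every K562 array was below every U2OS array, but the U2OS values were early only on the automated arrays. The means were -0.89 ± 0.39 (SD, n = 3) and 0.34 ± 0.48 (SD, n = 4), a difference of -1.23 (SE 0.31, limma adjusted p = 0.0123). Ranks were 35.3 to 37.9 in K562, 47.0 (manual 1), 45.5 (manual 2), 63.0 (automated 1) and 62.8 (automated 2) on U2OS. Of the window's spots, 0 of 6 were above background in both channels on the array labelled 44k. On the larger design it was 16 of 18 (new sorting), 6 (old sorting), 9 (each manual array), 10 (automated 1) and 15 (automated 2).

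Of the 11 PTPRC probes, over 113 kb, 4 read lower on both larger K562 arrays than on every U2OS array and the other 7 overlapped. The mean of the PTPRC probes differed by -1.30 (SE 0.35, limma adjusted p = 0.0343). That call was lost without any 1 of the 3 K562 or the 2 automated U2OS arrays (adjusted p 0.0524 to 0.109). No window adjoining PTPRC was called, so its run was 250 kb long. The neighbouring window on the lower-coordinate side, with NEK7 and ATP6V1G3, differed by -0.97 (limma adjusted p = 0.1001), and the window on the other side by -0.57 (limma adjusted p = 0.387). Farther on, both windows that hold NR5A2 were called later in K562, and the nearer one, 1250 kb away, differed by -2.35 (limma adjusted p = 0.000104). The NR5A2 windows were picked after their values were seen, and 31.6% of all windows were called. The PTPRC call was lost with windows of 100 kb (-1.40, limma adjusted p = 0.0579) and of 500 kb (-0.91, limma adjusted p = 0.112).

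TFRC, the transferrin receptor through which erythroid precursors and dividing cells take up iron, was early in both lines and earlier in U2OS. Its window (chr3:195750001-196000000) read 1.03 (new sorting), 0.27 (old sorting) and 0.07 (labelled 44k) on K562. It read 1.55 (manual 1), 1.94 (manual 2), 1.45 (automated 1) and 1.43 (automated 2) on U2OS. The lines did not overlap, and the new-sorting array was the nearest K562 array to U2OS. The means were 0.45 ± 0.51 (SD, n = 3) and 1.59 ± 0.24 (SD, n = 4), a difference of -1.14 (SE 0.28, limma adjusted p = 0.0106). TFRC ranked at 50.9 to 65.1 in K562 and at 90.5 to 99.2 in U2OS.

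The TFRC call was lost when the array labelled 44k was left out. On the array labelled 44k, 8 of the 10 spots in the window had a surrogate in the late channel, so that array's value is a lower bound for how early the window is. On the old-sorting array 4 of the 16 spots had a surrogate in the early channel, which makes their ratios upper bounds, and 2 had one in the late channel. Only 12.5% of the window's spots were above background in both channels on the new-sorting, old-sorting and both manual arrays. With surrogate spots left out the window had too few spots to be measured. Without the array labelled 44k the difference was -0.95 (limma adjusted p = 0.0613). Without both it and the old-sorting array it was -0.57, from 1 K562 array, so that the spread came from U2OS alone and no test of it is given. With normexp background correction it was -0.60 (limma adjusted p = 0.0733). With 100-kb windows, also fitted without the array labelled 44k, it was -0.68 (limma adjusted p = 0.226). Of the 4 TFRC probes, 1 read lower on both larger K562 arrays than on every U2OS array. The TFRC gene mean differed by -1.08 (SE 0.35, limma adjusted p = 0.0701), and neither adjoining window was called.

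**Figure D2:**
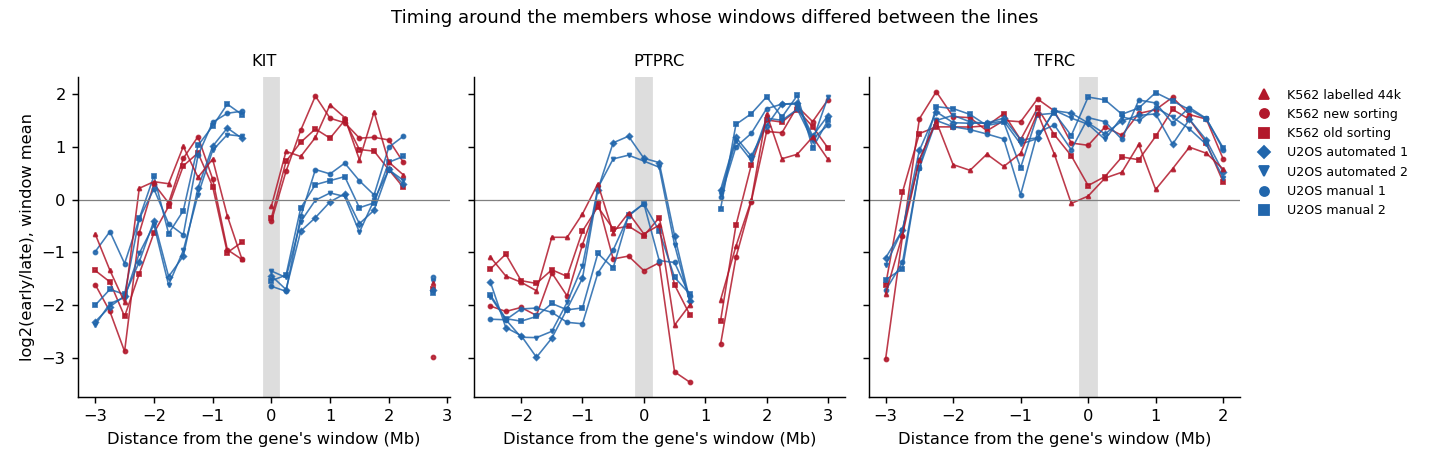
The lines give log2(early/late) of 250-kb windows up to 3000 kb to each side of KIT, PTPRC and TFRC, by array (K562 red, U2OS blue), with the gene's window in grey and gaps where a window had too few probes. At KIT the K562 arrays pass from below the U2OS arrays to above them, while at TFRC all 7 arrays stay mostly above 0.

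ANK1 and EPB41 encode an ankyrin and a spectrin-actin linking protein, which tie the red cell membrane to its spectrin skeleton, and both were early on all 7 arrays. The ANK1 window (chr8:41500001-41750000) read 1.39, 0.97 and 1.35 on the new-sorting, old-sorting and 44k-labelled K562 arrays. It read 1.63 (manual 1), 1.71 (manual 2), 1.45 (automated 1) and 1.52 (automated 2) on U2OS. All K562 arrays were slightly below all U2OS arrays, but the difference of -0.34 (SE 0.21) did not pass (limma adjusted p = 0.253). Of the 20 ANK1 probes, 2 read lower on both larger K562 arrays than on every U2OS array. On the array labelled 44k, 4 of the 8 spots in the ANK1 window had a surrogate in the late channel.

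The EPB41 window with 18 of its probes (chr1:29250001-29500000) read 1.54, 0.99 and 1.29 on the new-sorting, old-sorting and 44k-labelled K562 arrays. It read 2.02 (manual 1), 1.65 (manual 2), 1.22 (automated 1) and 1.44 (automated 2) on U2OS. The lines overlapped, and the difference was -0.31 (SE 0.25, limma adjusted p = 0.395). The adjoining window with 3 EPB41 probes was early too, with K562 at 0.70 ± 0.46 (SD, n = 3) and U2OS at 1.12 ± 0.17 (SD, n = 4) (difference -0.42, limma adjusted p = 0.247). On the array labelled 44k, late-channel surrogates made up 5 of 8 spots in the first and 3 of 6 in the second of these windows. On the old-sorting array 3 of the 21 spots in the second window had a surrogate in the early channel.

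SLC4A1 encodes band 3, the anion exchanger of the red cell membrane, and ITGA2B encodes the alpha chain of the platelet fibrinogen receptor. Their shared window (chr17:42250001-42500000) read 0.67, 0.48 and -0.12 on the new-sorting, old-sorting and 44k-labelled K562 arrays. It read 0.62 (manual 1), 0.32 (manual 2), 0.99 (automated 1) and 1.17 (automated 2) on U2OS. The lines overlapped, the only value below 0 came from the array labelled 44k, and the difference of -0.43 (SE 0.29) did not pass (limma adjusted p = 0.289). On that array 8 of the window's 11 spots had a surrogate in the late channel. On the old-sorting array 3 of its 19 spots had a surrogate in the early channel and 3 in the late channel. Late-channel surrogates also made up 8 of the 19 spots on the new-sorting array, 4 on manual 1 and 7 on manual 2. The automated arrays had 0. The window held 10 named genes, against a median of 2.

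Each of these genes rests on the single probe printed above. The SLC4A1 probe read 0.08 (new sorting) and -0.80 (old sorting) on K562, and 0.13 (manual 1), 0.71 (manual 2), -0.75 (automated 1) and 0.17 (automated 2) on U2OS. It has no counterpart on the array labelled 44k, so SLC4A1 is not in the fit of gene means. The ITGA2B probe read 1.35, 1.22 and -0.56 on the new-sorting, old-sorting and 44k-labelled K562 arrays, and 1.20, -0.64, 1.42 and 1.53 on manual 1, manual 2, automated 1 and automated 2 of U2OS. The ITGA2B spot had a late-channel surrogate on all 3 K562 arrays and on manual 2, with an early-channel surrogate as well on the old-sorting array, and was above background in both channels only on the automated arrays. Its values on those 4 arrays are therefore not exact readings. Neither probe separated the lines.

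ITGB3, the beta chain that pairs with the ITGA2B product, was early on all arrays. Its window (chr17:45250001-45500000) read 1.58, 1.08 and 1.13 on the new-sorting, old-sorting and 44k-labelled K562 arrays. It read 1.30 (manual 1), 1.03 (manual 2), 1.42 (automated 1) and 1.40 (automated 2) on U2OS. Late-channel surrogates made up 9 of the window's 12 spots on the array labelled 44k and 10 of 19 on manual 2. They made up 5 of 19 on the new-sorting array and 3 of 19 on manual 1. On the old-sorting array 3 of 19 spots had a surrogate in the early channel and 3 in the late channel. The lines overlapped, with a difference of -0.02 (SE 0.22, limma adjusted p = 0.947), and the sign of this difference changed with several settings. None of the 6 ITGB3 probes separated the larger K562 arrays from U2OS. In the fit of gene means, 2 of the 7 members tested were called, KIT earlier and PTPRC later in K562. Across all genes 14.3% were called, 6.78% earlier and 7.52% later. The gene means of 4 of the 7 (KIT, PTPRC, TFRC and ANK1) did not overlap between the lines, against 25.6% of all genes.

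**Figure D3:**
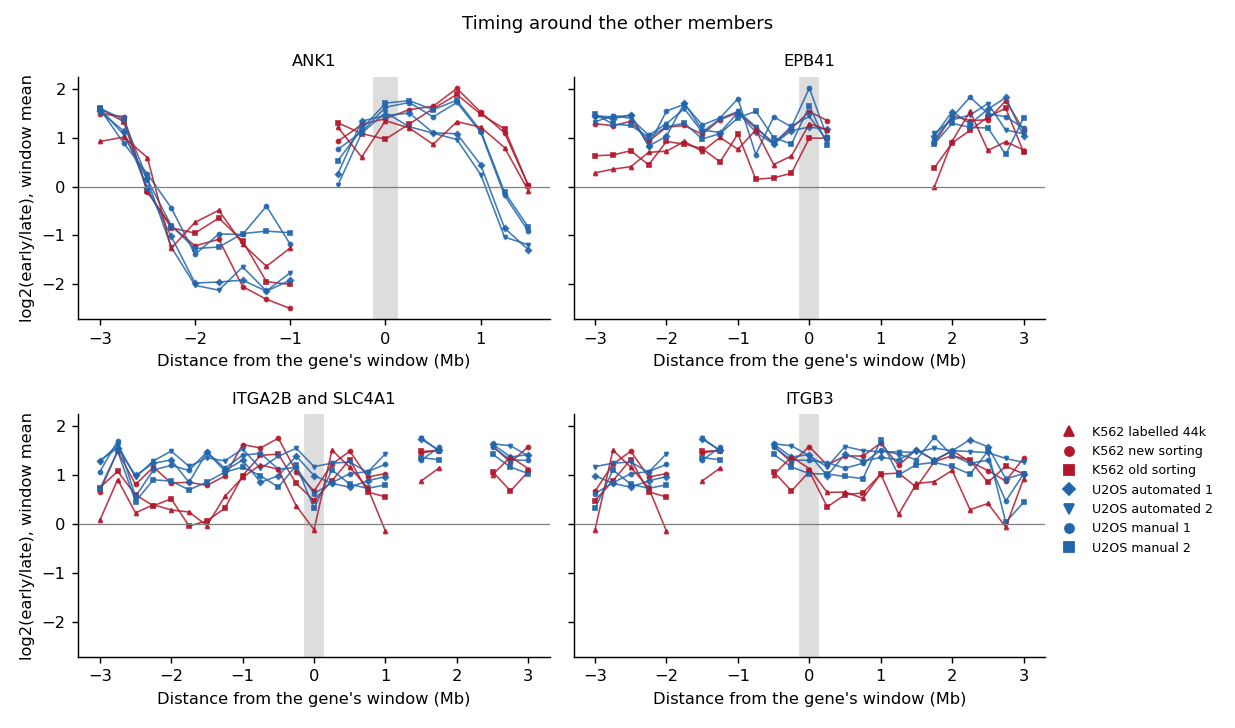
The lines give log2(early/late) of 250-kb windows up to 3000 kb to each side of ANK1, EPB41, ITGA2B with SLC4A1, and ITGB3, by array (K562 red, U2OS blue), with the gene's window in grey. EPB41, ITGA2B with SLC4A1 and ITGB3 lie in wide early regions on most arrays, and ANK1 lies in an early region that borders late DNA on its lower-coordinate side.

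The width of the surrounding domain was read on each array as the run of adjoining windows whose running mean over 3 windows kept the sign it had at the gene. The 8 genes lie in 7 such places. At 5 of them, all but KIT and PTPRC, the running mean had the same sign on all 7 arrays, as in 70.1% of all windows. Widths of the lines did not overlap for 3 of them, KIT, PTPRC and ANK1, against 40.8% of all windows. The median width over all windows was 2250 to 2750 kb by array, 2750 to 4000 kb for early and 2000 to 2250 kb for late windows.

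KIT lay in an early domain of 2500 kb on all 3 K562 arrays. The running mean there was 0.06, 0.19 and 0.39 on the new-sorting, old-sorting and 44k-labelled arrays, although the KIT window alone was below 0. The window on the PDGFRA side had no value. The running mean at KIT was therefore the mean of the KIT window and the earlier KDR window alone. In U2OS KIT lay in a late domain of 750 kb on both manual arrays and of 2000 and 1000 kb on the automated arrays. KIT was the outermost window of its domain on all 7 arrays. The difference of 1375 kb gave an exact permutation p of 0.0571 (two-sided, 35 regroupings, smallest possible 0.0286; 0.148 adjusted over all windows). Across 17 alternatives the widths of the lines were separate in 12. They overlapped with normexp (792 kb), no background correction (1042 kb) and loess (229 kb), where the values are the differences. The difference was 0 kb without surrogate spots, which left 4863 windows, and -1025 kb with 100-kb windows.

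The domain of PTPRC was late and 4250 kb wide on all 3 K562 arrays. It was late and 3500 kb wide on both manual U2OS arrays, and early and 1000 kb wide on both automated ones. The K562 domains were wider than every U2OS domain, with an exact permutation p of 0.0857 (two-sided; 0.202 adjusted over all windows). They overlapped without the array labelled 44k (2375 kb), with mean centring (1125 kb), with no running mean (1250 kb), with 100-kb windows (1225 kb) and without surrogate spots (542 kb), where the values are the differences. The manual and automated arrays of U2OS thus placed PTPRC in domains of opposite sign, and whether handling plays a part was not tested.

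ANK1 lay in an early domain of 2250 kb on the 3 K562 arrays, of 2000 kb on the manual and of 1750 kb on the automated U2OS arrays. The difference of 375 kb reached the smallest exact permutation p the design allows, 0.0286 (two-sided), which was 0.0825 adjusted over all windows. It came from the higher-coordinate edge, which lay 1500 kb from ANK1 in K562 and 1000 to 1250 kb from it in U2OS. The window 1250 kb from ANK1, with HOOK3 and FNTA, was earlier in K562 by 1.57 (limma adjusted p = 0.00204). It too was picked after its values were seen. Without the array labelled 44k the width difference was 125 kb and the lines overlapped.

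TFRC and ITGB3 each lay in an early domain of 4750 kb on all 7 arrays. TFRC thus differed in level inside a domain of the same measured extent. A domain also ends at missing windows or at a chromosome end, so an equal width need not mean equal timing borders. Between 19.7% and 28% of all windows, by array, lay in domains at least that wide. ITGA2B and SLC4A1 lay in an early domain of 18750 kb on the new-sorting K562 array and of 10500 to 11000 kb on the other 6. EPB41 lay in an early domain of 10750 to 11000 kb in K562, of 11000 kb on manual 2 and of 14750 to 15000 kb on the other 3 U2OS arrays. Without the array labelled 44k, 11175 windows could be measured instead of 8913. ITGA2B and ITGB3 then both had a width difference of 8375 kb, and the widths of the lines did not overlap. With all 7 arrays, the ITGA2B domain reached 1750 kb towards ITGB3 and the ITGB3 domain 500 kb towards ITGA2B, on every array. The equal differences may come from 1 shared domain, so they may not be separate changes.

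**Figure D4:**
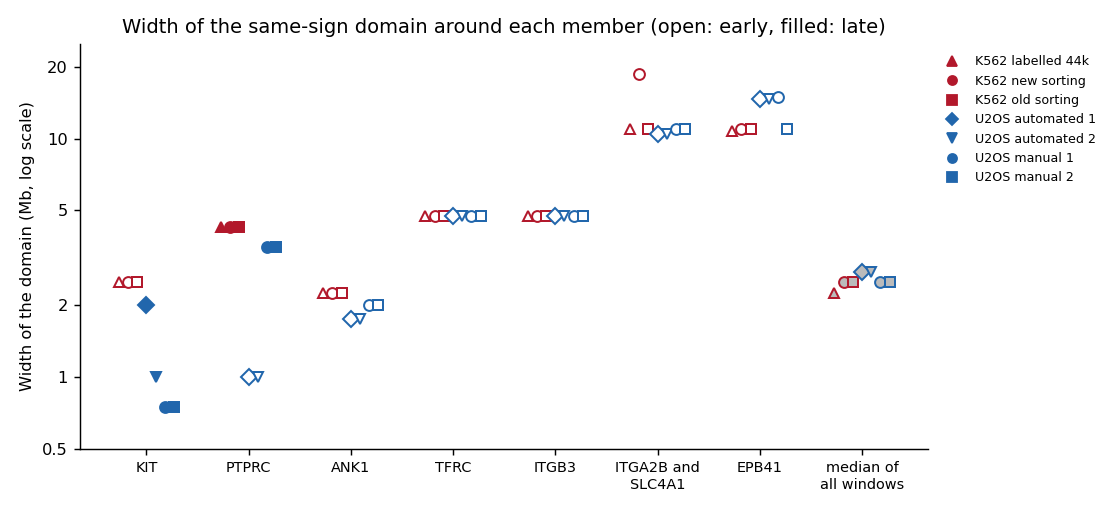
Points give the width of the same-sign domain around each gene on each array, on a log axis in Mb (K562 red, U2OS blue; open early, filled late), with the median over all windows at the right. KIT is in early domains in K562 and late ones in U2OS, and TFRC and ITGB3 have the same width on all 7 arrays.

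The member windows also differ in base composition and gene content. The G and C content of window probes was 38.9% at ITGA2B and SLC4A1 and 38.4% at ANK1, at percentiles 98.5 and 97.2 of all windows. It was 35.3% at PTPRC, at percentile 4.75, and 36.3% at KIT, at percentile 39.1. KIT and ANK1 were the sole named genes of their windows. The windows whose values over the 7 arrays came nearest to KIT, by root mean square difference among windows of 1 named gene on other chromosomes, were those of EXOC4 (0.20), PGCP (0.21) and HFM1 (0.22). Nearest to PTPRC were EBF1 (0.18), PCSK5 (0.19) and PRUNE2 (0.26), and nearest to TFRC were BCAS1 (0.22), AM988839 (0.26) and AKAP13 (0.27).

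Related genes were read from 6 lists, each window counted once. Of 14 windows with other membrane skeleton genes, 2 were earlier and 1 later in K562, with a median difference of -0.22. They included ankyrins best known outside red cells, ANK3, earlier by 1.67 (limma adjusted p = 0.000513), and ANK2, later by -1.65 (limma adjusted p = 0.00247).

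Of 25 windows with erythroid surface proteins and transporters, 6 were earlier and 3 later in K562, with a median of -0.27. RHAG, a component of the Rh complex, averaged 1.08 ± 0.38 (SD, n = 3) in K562, against -1.85 ± 0.28 (SD, n = 4) for U2OS, and was earlier by 2.93 (limma adjusted p = 5.01e-05). CD36, a fatty acid and thrombospondin receptor, was later in K562 by -2.09, and ABCG2, an efflux transporter, by -1.71.

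Of 23 windows with megakaryocyte and platelet surface genes, 3 were earlier and 6 later, with a median of -0.36. ADRA2A, an adrenergic receptor, was earlier by 1.84 and THBD (thrombomodulin) by 1.58. The collagen receptor chain ITGA2 was later by -1.76 and the laminin receptor chain ITGA6 by -1.61. Of 20 windows with progenitor and leukocyte surface genes, 3 were earlier and 3 later, with a median of -0.19. CD53 (2.04) and CD69 (1.92) were earlier in K562, and CD38 (-2.10) and PTPRCAP, whose product binds CD45, (-0.96) were later.

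Among 16 windows with integrin chains outside these lists, 2 were earlier (ITGB8 by 1.26 and ITGA8 by 0.89) and 4 later, including ITGB6 by -3.67 and ITGA1 by -2.33. Among 20 windows with mesenchymal and adherent cell genes, 3 were earlier, including KDR and SDC2, and 3 later, including PDGFRA and EGFR. The share called ran from 21.4% to 39.1% over the 6 lists, beside 31.6% of all windows, and the medians from -0.50 to -0.19.

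**Figure D5:**
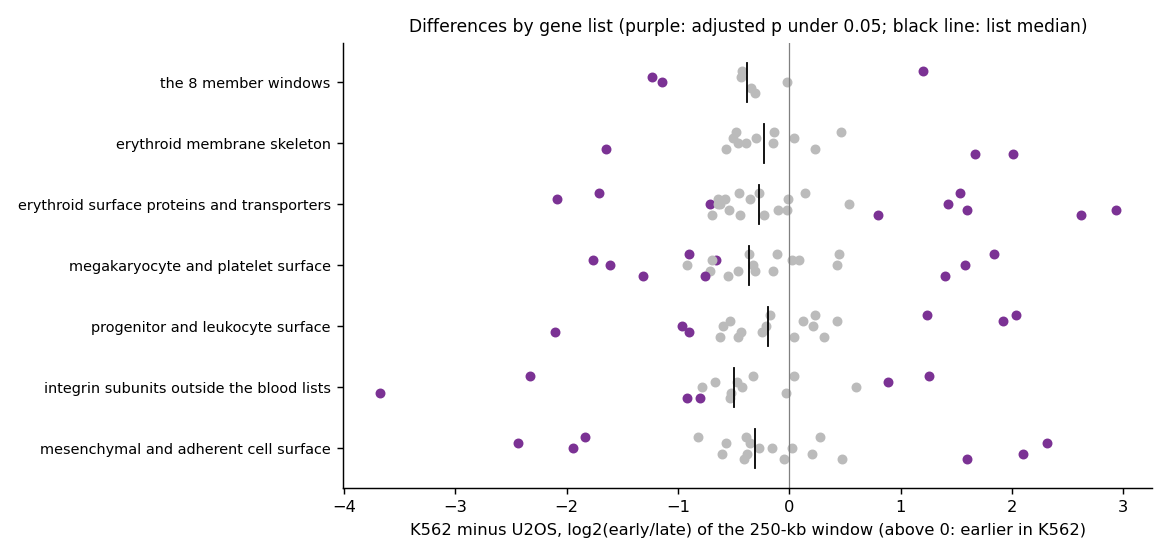
Each point is the K562 minus U2OS difference in log2(early/late) of a 250-kb window, by gene list (purple: limma adjusted p under 0.05; grey: others; black line: list median). Every list holds windows called in both directions, and the list medians lie between -0.50 and -0.19.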

How the data were processed

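Agilent two-colour arrays of K562 (3) and U2OS (4) were used. The authors deposited the intensity of each spot in both channels and its log10 ratio, as written by Feature Extraction, version 11.5.1.1 per the file headers and 9.1 per the submitters' processing notes, with probe positions on hg19. The processed intensity was, per the file headers, background-subtracted and dye-normalized by the scanner software. From it log2(early/late) was computed here as Cy3 over Cy5, and the deposited log10 ratio served only to check it. Control spots and spots marked saturated, non-uniform or manually excluded were left out. Arrays were centred on the median probe of the autosomes and X, without loess, because timing can shift many probes either way. Windows of 250 kb needed 3 probes on every array. Groups came from the sample titles and cell line labels. limma 3.58.1 in R 4.3.3 (lmFit, eBayes, Benjamini-Hochberg over 8913 windows or 14181 genes) compared the lines, and widths were compared by exact permutation over the 7 arrays. A domain ended at a sign change, at 2 missing windows or at a chromosome end.

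All members with a probe were named, and from each list up to 2 genes per direction with the largest difference among called windows whose lines did not overlap. Some genes that this rule names are not reported here. The members and lists were chosen with earlier results of these data known. In simulated data with 200 shifted windows of 8913, 22% of shifts of 1 and 100% of shifts of 2 log2 units were recovered. In the data 31.6% of windows were called, a larger share than was shifted. Adjustment over all windows depends on that share, so these figures do not give the recovery in the data. The number of arrays limits the precision. Alternatives covered background correction, normalization, filters, window size, domain rule and leaving out arrays. The alternative with 100-kb windows used the 6 arrays of the larger design, so it also left out the array labelled 44k. Percentile ranks, surrogate spots left out, both dim K562 arrays left out and the manual arrays averaged were added after seeing the data.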

Additional observations from a re-analysis of the deposited data

Results flagged for a closer look

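Among 21 sets of 4 U2OS values tested with Dixon's test, 2 had an array far from the others; chance flags about 1 in 20 such sets. The ITGA2B gene mean, from 1 probe, was -0.64 on manual 2, where its spot had a surrogate in the late channel and the value is a lower bound, and 1.20 to 1.53 on the other U2OS arrays. The EPB41 domain was 11000 kb wide on manual 2, and 14750 to 15000 kb on the other U2OS arrays.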

How the results depend on the processing

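The KIT window kept its direction and its call in all 21 alternatives on the log2 scale that measured it (with at least 5 probes per window it was not measured), with differences of 0.76 to 1.77. PTPRC was called in 20 of 22 and TFRC in 17 of 21, each with 1 direction. The alternatives counted for KIT, PTPRC and TFRC include the fit with 1 K562 array, in which the spread came from U2OS alone. Called member windows numbered 2 to 4 when 1 array was left out, while the share of all windows called ran from 22.4% to 36.4%. The fourth, without the new-sorting K562 array, was the EPB41 window with 3 probes, where 33.2% of all windows were called. Without background correction 16.5% of all windows were called, and 3 member windows. Called gene means, 2 in the fit reported, numbered 1 with normexp, loess, mean centring or no surrogates, 0 without background correction or without dim probes, 3 with arrays scaled to the same MAD (median absolute deviation) or at least 2 probes per gene, where TFRC gained a call (limma adjusted p = 0.0352 and 0.0298), and 0 to 1 when 1 array was left out. Domains with separate widths, 3 as reported, numbered 0 without surrogates and 1 with no running mean. They numbered 2 with normexp, no background correction, loess or mean centring, and 3 to 4 when 1 array was left out.

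The ITGB3 window became 0.14 with normexp, 0.096 without background correction, 0.065 centred on the mean, 0.20 without surrogates, 2.35 percentile points on ranks, and 0.30 without the old-sorting and 44k K562 arrays; leaving out 1 array gave -0.18 to 0.070. At 100 kb, without the array labelled 44k, the ITGA2B window was 0.11 and SLC4A1 fell in another window (-0.26). Their shared window was -0.11 without surrogates. The ITGA2B gene mean was 0.058 with normexp and -0.71 to 0.41 with 1 array left out. The ITGB3 gene mean was 0.12 with normexp, and the EPB41 gene mean 1.5e-05 without background correction and 0.24 without dim probes. Width differences were 0 for KIT and ANK1 without surrogates and -1025 kb for KIT at 100 kb. For ITGA2B, 2833 kb as reported, they were -167 kb with loess and -5771 kb with no running mean. Without surrogates 4863 windows remained, against 8913, and a domain ends at 2 missing windows, so those widths can be cut at gaps. The cause of these changes was not tested.

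Of 2814 called windows genome-wide, 45.3% were earlier in K562, and of 1873 with normexp 36.3% were. Without background correction 1469 windows were called. Leaving out dim probes left 209 windows, none of a member. Slide as a random block could not be fitted, since 6 slides hold 7 arrays; averaging the manual arrays kept 3 member windows called. No paired analysis was possible because the K562 arrays carry no replicate numbers shared with U2OS. Dim late signal limits how early TFRC, ITGA2B, SLC4A1, ITGB3, EPB41 and ANK1 can read on the array labelled 44k.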
